A study of Mus musculus with 288 samples.

Results

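Among single cells sorted from the upper small intestine of mice, the cells with high Cck were divided by their level of Ghrl, the gene of the ghrelin precursor. Cells were selected on their own reads: at least 20000 reads on mouse genes, at most 20% of them on mitochondrial genes, Cck at 10000 CPM or more (CPM being reads scaled to the same total of mouse gene reads in each cell) and Gip under 10000 CPM. Of 288 sequenced cells, 250 passed the depth and mitochondrial limits and 150 of these were Cck-high with Gip under its limit. Ghrl-high cells had 10000 CPM of Ghrl or more and numbered 44, with 10 in pool SLX-11175, 12 in pool SLX-11179 and 22 in pool SLX-9703. Ghrl-low cells had under 1000 CPM and numbered 57, with 18, 18 and 21 in the same pools. The other 49 cells lay between the limits and are used only as a description. Because Ghrl, Cck and Gip chose the cells, their levels are described and not tested.

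Ghrelin is a peptide hormone best known from endocrine cells of the stomach, where it stimulates appetite, and it is also made by endocrine cells of the duodenum. Its precursor must be octanoylated by the acyltransferase Mboat4 to act on the ghrelin receptor Ghsr, and the acyl group comes from medium-chain acyl-CoA. Cholecystokinin, the product of Cck, is released after fat and protein and slows gastric emptying, and many cells of the upper gut transcribe several hormone genes at once.

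The cells came from 3 male GLU-Venus mice on a C57BL6 background aged 20 to 21 weeks, in which the promoter of the proglucagon gene Gcg drives a fluorescent protein. They came from the upper small intestine and were labelled L-cells, the classical name of proglucagon cells. Fluorescent and non-fluorescent control cells were sorted, and a cell is labelled by its pool, not by its mouse or its fluorescence. The 3 pools were taken as replicates and blocked in the model. The p-values thus rest on how the difference between Ghrl-high and Ghrl-low cells varied over these pools. With 2 residual degrees of freedom, the error estimate of edgeR also draws on the other genes (8.34 prior degrees of freedom). Gcg, the gene behind the L-cell label, reached 10000 CPM in 14 of the 44 Ghrl-high and 20 of the 57 Ghrl-low cells. Scaled by its total reads alone, the sum of the cells of each pool held 19462 to 67173 CPM of Gcg in Ghrl-high and 29192 to 42058 CPM in Ghrl-low cells, and 39.1 to 538 CPM in the cells with Cck and Gip under 10000 CPM and Ghrl under 1000 CPM.

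The reads of the cells of each side were summed per pool, which gave 6 sums of 709021 to 51518637 reads. Sequencing was far deeper in pool SLX-9703: the median Ghrl-high cell had 2307990 reads there, 68285 in SLX-11175 and 76949 in SLX-11179. Within each pool the Ghrl-high cells had somewhat more reads than the Ghrl-low cells, whose medians were 1960300, 54825 and 67888 reads in the same order. They also had more genes with a read, at medians of 9534 against 8995, 4413 against 3820 and 4358 against 3980. The part of this depth in the results was not tested, but beside shares of cells with a read stands the number expected if every cell had only 20000 reads, computed exactly from its counts.

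Ghrl made up a few percent of the reads on mouse genes in the Ghrl-high cells. The 3 Ghrl-high sums held 31412, 26169 and 26302 CPM after TMM normalization, in the pool order SLX-11175, SLX-11179 and SLX-9703 that is used throughout, and the Ghrl-low sums held 301, 311 and 213 CPM. The means were 27961 ± 2989 and 275 ± 53.7 CPM (SD, n = 3). Single Ghrl-high cells ranged from 10008 to 80196 CPM with a median of 22969 CPM, and Ghrl-low cells from 0 to 927 CPM with a median of 133 CPM. A read of Ghrl was found in 50 of the 57 Ghrl-low cells, and 42 would be expected to keep one at 20000 reads. Levels ran through the limits without a gap: the lowest Ghrl-high cells had 10008, 10165 and 10298 CPM and the highest cells beneath the limit 8779, 8999 and 9888 CPM. At the other limit, the highest Ghrl-low cells had 815, 876 and 927 CPM and the lowest cells above it 1059, 1066 and 1080 CPM. The lowest Cck level inside the selection was 10906 CPM and the highest outside it 9565 CPM. For Gip the highest inside was 3645 CPM, in a cell between the Ghrl limits, and 2560 CPM in Ghrl-high and Ghrl-low cells, whereas the lowest outside was 11717 CPM. Ghrl overlaps the predicted genes Gm26982 and Gm44033 on the other strand, and counts without strand cannot separate them.

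**Figure D1:**
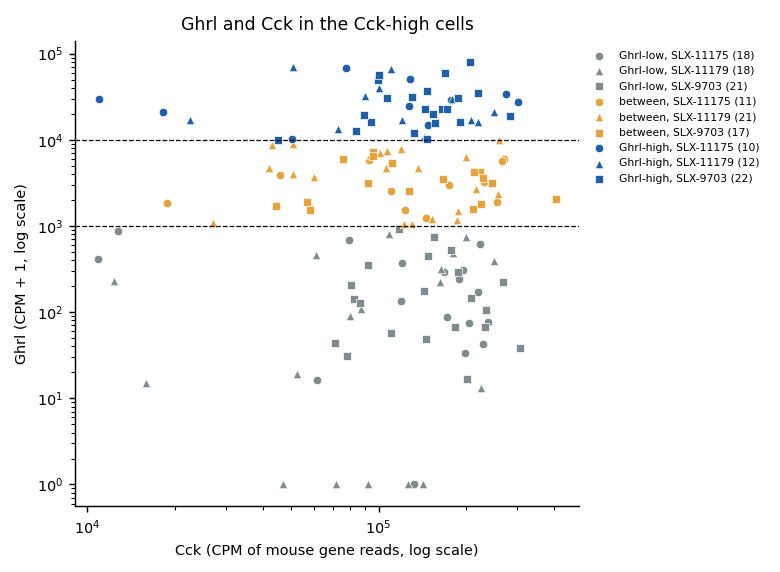
Ghrl level (CPM + 1) against Cck level (CPM), both on log scales, for the 150 Cck-high cells, with colour for the side and symbol for the pool. Dashed lines mark the Ghrl limits of 1000 and 10000 CPM, and Ghrl-high and Ghrl-low cells are spread over the same range of Cck.

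Cck itself was used only as a lower limit and its levels on the sides overlapped. The Ghrl-high sums held 130514, 162477 and 124408 CPM and the Ghrl-low sums 185479, 157402 and 138038 CPM. The sums of the sides overlapped, and the Ghrl-high sum was above its pool partner in 1 of 3 pools. Gip, the incretin gene kept under its limit, was at 28.1, 52.3 and 39.4 CPM in the Ghrl-high sums and at 78.2, 273 and 64.8 CPM in the Ghrl-low sums.

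The comparison asks which other genes differ between Cck cells with high and with low levels of ghrelin transcripts. In the quasi-likelihood test of edgeR, blocked by pool, 9275 genes were tested besides the 3 that chose the cells. Only Cd177 was higher in Ghrl-high cells at an adjusted p under 0.05, which is 0.0108% of the genes tested, and 0 genes (0%) were lower. At an unadjusted p under 0.05, edgeR had 162 genes higher and 163 lower. DESeq2 on the same sums called 9 genes higher and 8 lower, and limma on the mean log2(CPM + 1) of the cells called 10 and 4. The median log2 fold change of all genes tested was -0.02. Of all genes tested, 12.7% were higher and 14.7% lower in the Ghrl-high sum of every pool, and for 4.78% and 4.45% the 3 Ghrl-high sums lay wholly above or wholly below the 3 Ghrl-low sums.

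Cd177 encodes a glycoprotein anchored in the outer membrane and is known as a surface antigen of neutrophils. It was at 129, 13.7 and 184 CPM in the Ghrl-high sums and at 5.66, 0 and 9.90 CPM in the Ghrl-low sums. All of the Ghrl-high sums were above all of the Ghrl-low sums. The log2 fold change was 4.46 with an SE of 0.51, higher in 3 of 3 pools, with p = 4.3e-06 and an adjusted p of 0.040 by edgeR. These levels rested on 92, 16 and 11406 reads in the Ghrl-high sums against 5, 0 and 517 reads in the Ghrl-low sums. In pool SLX-11179, counting the sum without a read at a floor of 3 counts, the Ghrl-high level was 5.87-fold higher. That ratio takes the 16 Ghrl-high reads as exact and is no lower limit, as 11 of them came from 1 cell. Of the 517 Ghrl-low reads of pool SLX-9703, 426 came from 1 cell. Other neutrophil genes, chosen after this result was seen, were looked up in the same cells: Ly6g, Mpo, Elane, Ngp and Camp had 0 reads on either side. S100a8 and S100a9 had 0 reads in the Ghrl-high and 3 and 2 reads in the Ghrl-low cells, and the receptor gene Cxcr2 had 3 and 5 reads. The part of neutrophil material in the Cd177 reads was not tested.

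Ceacam10, a mouse member of the carcinoembryonic antigen family that is secreted, had the next lowest p. Its Ghrl-high sums were at 244, 157 and 373 CPM and its Ghrl-low sums at 27.2, 46.5 and 46.7 CPM. The sides did not overlap, at means of 258 ± 109 and 40.1 ± 11.2 CPM (SD, n = 3). The log2 fold change was 2.65 with an SE of 0.35 (p = 1.5e-05), and its adjusted p by edgeR was 0.071, so that it did not pass the threshold. With Ghrl, Cck and Gip counted among the genes tested, the adjusted p of Ceacam10 became 0.047 and that of Cd177 0.020 in the same edgeR fit. Ghrl chose the sides, so this change of adjusted p draws on the selection and is no further evidence for either gene. The other measured genes of the family had log2 fold changes of -0.27 (SE 0.28) for Ceacam1 and -0.31 (SE 0.32) for Ceacam18, with overlapping sums.

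Cd177 and Ceacam10 are neighbours. In build mm10, Cd177 lies at chr7:24743983-24760311 on the minus strand and Ceacam10 at chr7:24777206-24784657 on the plus strand, so that they point away from each other with 16895 bases between their starts and no annotated gene between them. Within 200000 bases on either side lie 26 other annotated genes, of which 4 were expressed enough to be tested and 0 were called by edgeR. Their log2 fold changes ran from -0.99 for Arhgef1 to 1.51 for Xrcc1, with 2 of the 4 higher and 1 lower in every pool, against 12.7% and 14.7% of all genes tested. Reads from the pair cannot be confused by overlap, since neither gene overlaps another in the annotation.

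The start regions of Ghrl, Cd177 and Ceacam10 are shown because Cd177 and Ceacam10 had the lowest p besides the gene that chose the cells and are neighbours. The windows are from RefSeq on build GRCm38.p6, 300 bases each, written 5′ to 3′ on the strand of the gene, at chr6:113719862-113720161 (minus) for Ghrl, chr7:24760262-24760561 (minus) for Cd177 and chr7:24776954-24777253 (plus) for Ceacam10. Capitals mark the motifs found on either strand among 5 that were chosen after the sequences had been seen. They were the TATA box core TATAA, the E-box CAGATG that NeuroD1 binds, the homeodomain core TAATTA, the forkhead core TGTTTAC and an HNF4 element spelled CAAAGTCCA.
Ghrl: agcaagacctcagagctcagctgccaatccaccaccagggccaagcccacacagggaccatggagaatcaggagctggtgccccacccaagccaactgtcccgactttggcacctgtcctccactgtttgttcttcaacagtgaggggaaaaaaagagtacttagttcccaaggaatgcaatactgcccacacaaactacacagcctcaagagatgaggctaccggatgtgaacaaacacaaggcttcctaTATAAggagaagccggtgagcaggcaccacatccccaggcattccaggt
Cd177: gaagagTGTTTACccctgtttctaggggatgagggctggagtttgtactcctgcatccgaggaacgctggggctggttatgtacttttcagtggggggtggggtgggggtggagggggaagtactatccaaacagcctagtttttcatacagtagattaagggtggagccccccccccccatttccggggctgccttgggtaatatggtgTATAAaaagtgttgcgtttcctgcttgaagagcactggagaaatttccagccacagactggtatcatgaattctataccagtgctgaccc
Ceacam10: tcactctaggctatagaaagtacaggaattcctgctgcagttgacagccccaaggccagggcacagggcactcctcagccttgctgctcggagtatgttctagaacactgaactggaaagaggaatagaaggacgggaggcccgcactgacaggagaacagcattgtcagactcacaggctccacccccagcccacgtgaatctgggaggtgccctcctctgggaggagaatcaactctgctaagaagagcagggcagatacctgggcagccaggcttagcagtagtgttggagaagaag
Counted from the first base printed, the TATA box core starts at position 252 in the Ghrl window and 211 in the Cd177 window, and the forkhead core at position 7 in the Cd177 window. The Ceacam10 window holds none of the 5. RefSeq gives 4 windows for Ghrl, of which the one nearest to the annotated start of the gene is shown. The other 3 lack the TATA box core, and 2 of them hold the E-box. The other of the 2 Ceacam10 windows also holds none of the motifs. Of 32851 RefSeq windows of the same length, 24.9% hold the TATA box core, 17.2% the E-box, 5.29% the homeodomain core, 3.65% the forkhead core and 0.475% the HNF4 element. A match describes the letters and is not a binding site.

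Cell by cell, Ceacam10 was found in nearly all Ghrl-high cells and Cd177 in most of them. A read of Ceacam10 was present in 42 of 44 Ghrl-high cells (95.5%, 95% Clopper-Pearson interval 84.5 to 99.4%) against 31 of 57 Ghrl-low cells (54.4%, 40.7 to 67.6%). At 20000 reads in every cell, 40 and 19 cells would be expected to keep a read. A read of Cd177 was present in 30 of 44 Ghrl-high cells (68.2%, 52.4 to 81.4%) against 8 of 57 Ghrl-low cells (14%, 6.26 to 25.8%), or 23.3 and 3.2 cells at 20000 reads. These intervals cover counting error only, and reads without molecular identifiers are not independent molecules. In the 48 cells of the series with Cck, Gip, Gcg and Ghrl each under 1000 CPM, whose median depth was 71920 reads and of which 9 reached 10000 CPM of Nts and 4 of Sct, Ceacam10 had a read in 10 cells and Cd177 in 4, or 3.5 and 0.1 cells at 20000 reads. The pools differed: Cd177 was found in 7 of 10, 4 of 12 and 19 of 22 Ghrl-high cells, and in pool SLX-11179 11 of its 16 reads came from 1 cell.

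The cells between the Ghrl limits, which the comparison did not use, had Ceacam10 sums between those of the sides in every pool. Without TMM factors, the sums of Ceacam10 were at 22.2, 39.5 and 245 CPM from Ghrl-low over intermediate to Ghrl-high cells in pool SLX-11175. They were at 37.7, 107 and 149 CPM in pool SLX-11179 and at 56.3, 95 and 448 CPM in pool SLX-9703. Cd177 followed this order in pool SLX-11175 with 4.62, 14.8 and 130 CPM but not in the other pools, where intermediate cells had 68.1 CPM against 13 CPM in Ghrl-high cells of pool SLX-11179 and 3.75 CPM against 11.9 CPM in Ghrl-low cells of pool SLX-9703. Of the 116 intermediate reads of Cd177 in pool SLX-11179, 109 came from 1 cell. At 20000 reads, 26.5 of the 49 intermediate cells would be expected to have a read of Ceacam10 and 6.2 one of Cd177.

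**Figure D2:**
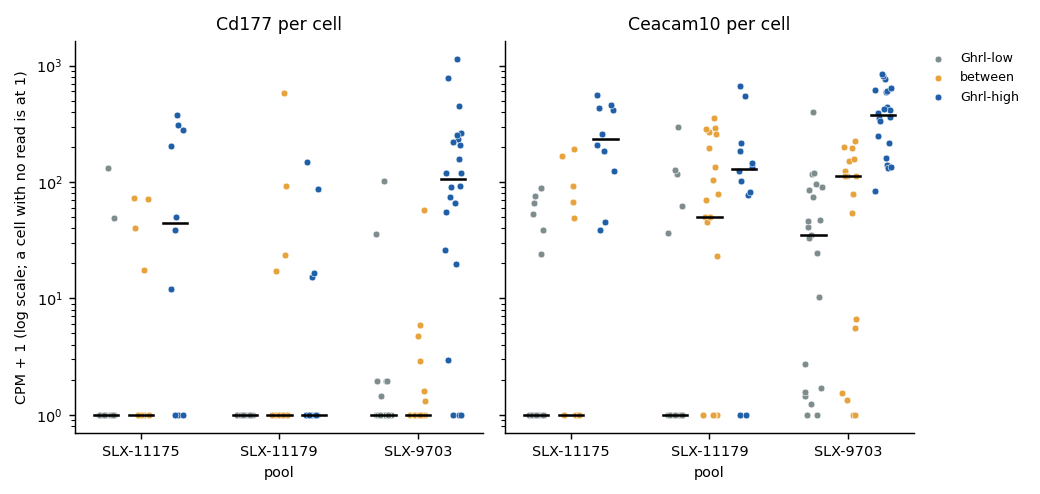
Cd177 and Ceacam10 in every Cck-high cell (CPM + 1, log scale, cells with no read at 1), by pool and Ghrl side, with the median of each group as a bar. Ceacam10 medians climb with the Ghrl class in pools SLX-11179 and SLX-9703, and Cd177 has a median above 0 only in the Ghrl-high cells of pools SLX-11175 and SLX-9703.

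The next genes with higher levels in every pool did not pass the threshold in the main comparison and are given as values. Among the alternatives, Serpina1c was called higher in 6 of 22, Slc29a4 in 5 of 21, Hcar2 in 2 of 14, Clps in 1 of 14, Clip1 in 1 of 22 and the Serpina1c copy Serpina1d in 5. Slc29a4, a transporter of serotonin and other monoamines across the plasma membrane, was at 19.7, 60.9 and 19.8 CPM in the Ghrl-high sums and at 0, 0.91 and 0.42 CPM in the Ghrl-low sums. Its log2 fold change was 5.87 (SE 0.92, p = 7.0e-05, edgeR adjusted p = 0.22). It was found in 17 of 44 Ghrl-high and 5 of 57 Ghrl-low cells, or 9 and 0.4 cells at 20000 reads. In the Ghrl-high sums, 7 of the 14 reads of pool SLX-11175 and 44 of the 71 reads of pool SLX-11179 came from 1 cell each. Without TMM factors, Slc29a4 was at 19.7, 57.8 and 23.7 CPM in Ghrl-high and 0, 9.98 and 32.1 CPM in intermediate cells. In the cells with Gip at 10000 CPM or more it was at 3.24, 5.5 and 69.6 CPM. Serpina1c, a mouse copy of the protease inhibitor alpha-1-antitrypsin, was at 64.6, 42.1 and 53.9 CPM against 0, 5.47 and 2.87 CPM. It was found in 6 of 10, 5 of 12 and 16 of 22 Ghrl-high cells. Of its Ghrl-high reads, 28 of 46, 33 of 49 and 1488 of 3340 came from 1 cell each. Its log2 fold change was 4.28 (SE 0.80, p = 0.00028, edgeR adjusted p = 0.51), but its reads can be shared with near-identical copies. Of these copies, Serpina1a was higher in every pool (log2 fold change 3.05, SE 1.38), and Serpina1b (0.72, SE 0.37), Serpina1d (4.03, SE 1.4) and Serpina1e (0.71, SE 0.46) in 2 of 3 pools. Serpina1c also overlaps B430119L08Rik on the other strand.

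Hcar2, the receptor of nicotinic acid and beta-hydroxybutyrate, had 4, 32 and 530 reads in the Ghrl-high sums and 0, 0 and 1 read in the Ghrl-low sums. In pool SLX-9703 this is a ratio of levels of 446 with a counting interval of 79.6 to 17630, and in pools SLX-11175 and SLX-11179 at least a 2.03-fold and 11.7-fold higher level. The reads came from 10 of the 44 Ghrl-high cells (5.5 expected at 20000 reads), and 376 of the 530 reads of pool SLX-9703 from 1 cell, so that few cells set this difference (edgeR p = 0.00059, adjusted p = 0.91). Without TMM factors, Hcar2 was at 5.64, 26 and 10.3 CPM in Ghrl-high and 0, 4.11 and 12.3 CPM in intermediate cells. Clps, the colipase that anchors pancreatic lipase to fat droplets, had 7, 3 and 3432 reads against 0, 1 and 24 reads (log2 fold change 5.88, SE 1.56, p = 0.0034, edgeR adjusted p = 0.999). In pool SLX-9703, 1893 of the 3432 Ghrl-high reads came from 1 cell and all 24 Ghrl-low reads from 1 cell. A read of Clps was present in 20 of 44 Ghrl-high and 2 of 57 Ghrl-low cells, or 9 and 0.4 cells at 20000 reads. Where a sum has no read, as for Slc29a4, Serpina1c, Hcar2 and Clps, the fitted fold change depends on the prior count and is no bound.

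Slc25a25, Clip1 and Gcc2 also had higher sums without overlap, as did 4.78% of all genes tested. Slc25a25, a carrier of ATP-magnesium into mitochondria, was at 53.4, 36 and 38 CPM against 4.53, 4.55 and 13.6 CPM (log2 fold change 2.52, SE 0.65), and overlaps Naif1 on the other strand. Clip1, which binds the growing ends of microtubules, was at 60.4, 87.5 and 57 CPM against 34, 21 and 8.51 CPM (log2 fold change 1.93, SE 0.50), and overlaps Gm24840 and Gm42651. Gcc2, a golgin of the trans-Golgi network, was at 271, 149 and 149 CPM against 71.4, 70.1 and 92.8 CPM (log2 fold change 1.21, SE 0.32). The unadjusted edgeR p of these 3 genes were 0.0029, 0.0029 and 0.0032, and each adjusted p was 0.999.

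Among the genes lower in Ghrl-high cells in every pool, Lect2 and Pax4 had large differences and few cells. Lect2, a secreted protein known from liver, had 2, 0 and 28 reads in the Ghrl-high sums against 25, 72 and 1135 in the Ghrl-low sums (log2 fold change -5.46, SE 0.99, p = 0.00022, edgeR adjusted p = 0.51). It was found in 4 of 44 Ghrl-high and 16 of 57 Ghrl-low cells, or 0.7 and 10.1 cells at 20000 reads, and 872 of the 1135 reads came from 1 cell. In pool SLX-11179, with the empty Ghrl-high sum counted at a floor of 3 counts, its level was 21.8-fold lower there. That ratio takes the 72 Ghrl-low reads as exact and is no limit. Pax4, a homeodomain factor that acts in the formation of endocrine cells, was at 4.21, 6.01 and 6.14 CPM against 46.5, 17.3 and 86.1 CPM. Its log2 fold change was -3.03 (SE 0.68, p = 0.0011, edgeR adjusted p = 0.999), and it was found in 10 of 44 and 16 of 57 cells, or in 3 and 12 cells at 20000 reads. In pool SLX-11179, 18 of the 19 Ghrl-low and all 7 Ghrl-high reads of Pax4 came from 1 cell each. The 3 Ghrl-high reads of pool SLX-11175 also came from 1 cell.

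The remaining genes of this direction were of several kinds. Plcxd3, a phosphoinositide phospholipase, was at 12.6, 9.44 and 12.5 CPM against 71.4, 46.5 and 49.5 CPM (log2 fold change -2.24, SE 0.49). Mttp, which loads lipid onto apolipoprotein B, was at 22.5, 9.44 and 88 CPM against 113, 137 and 156 CPM (-2.18, SE 0.52), and overlaps Gm43691 and Trmt10a on the other strand. The serine protease gene Prss30 had a log2 fold change of -2.34 (SE 0.63), Cdkn2aipnl one of -3.60 (SE 0.97) and Oit1 one of -1.90 (SE 0.53), all with sums that did not overlap. Cdkn2aipnl had 0, 1 and 679 reads in the Ghrl-high sums, so that its fitted value depends on the prior count. With a pool left out it ran from -5.82 to -2.76. Vezt, a protein of adherens junctions, had a log2 fold change of -0.64 (SE 0.18), but its level differed more between pools than between sides, from 1907 CPM down to 21.6 CPM in the Ghrl-high sums. Slc34a2, a sodium-phosphate cotransporter, took a large share of all reads, with 271465, 257534 and 94070 CPM against 364980, 437447 and 108028 CPM (-0.46, SE 0.10). It did so outside the Cck-high cells as well. Without TMM factors it was at 235092, 251824 and 248575 CPM in Ghrl-low cells under 10000 CPM of Cck and Gip. In the Gip-high cells it was at 422975, 178437 and 174589 CPM. Each of the 7 genes in this paragraph had an edgeR adjusted p of 0.999 in the main comparison. Among the alternatives, Lect2 was called lower in 3 of 20, Pax4 and Mttp in 3 of 22, Slc34a2 in 2 of 21, Cdkn2aipnl in 2 of 22 and Plcxd3 in 1 of 22, and Prss30, Oit1 and Vezt in 0.

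No other hormone passed the test in the main comparison. Among the alternatives, edgeR called Sct lower with no filter on low counts (log2 fold change -0.60) and in cells from 10000 CPM of Gcg (-1.49), and Nts higher in cells from 10000 CPM of Gcg (4.65). The fit on cells from 10000 CPM of Gcg rests on 2 pools, SLX-11175 and SLX-9703. Among its Ghrl-high cells, 1 cell per pool held most of the Nts, at 8611 and 626 CPM. The other Ghrl-high cells of that fit had at most 34.1 and 11.6 CPM of Nts in these pools. Gcg was at 40867, 20533 and 55891 CPM in the Ghrl-high sums and at 51525, 38689 and 24218 CPM in the Ghrl-low sums. It was higher in pool SLX-9703 and lower in the other pools, with a log2 fold change of -0.03 (SE 0.31, edgeR p = 0.93). Single Ghrl-high cells ran from 11 to 352258 CPM of Gcg with a median of 2087 CPM, and Ghrl-low cells from 0 to 227440 CPM with a median of 2255 CPM. Sct, the secretin gene, was lower in every pool, at 25727, 47120 and 43372 CPM against 66589, 58582 and 49336 CPM without overlap. Its log2 fold change of -0.62 (SE 0.19) had an unadjusted p of 0.0093 and an edgeR adjusted p of 0.999. Sct reached 10000 CPM in 29 of 44 Ghrl-high (65.9%, 50.1 to 79.5%) and 47 of 57 Ghrl-low cells (82.5%, 70.1 to 91.3%).

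Pyy, the peptide YY gene, was at 710, 1416 and 467 CPM against 5031, 1469 and 328 CPM (log2 fold change -0.71, SE 0.52, p = 0.20, edgeR adjusted p = 0.999). The difference was largest in pool SLX-11175, where 2336 of the 4441 Ghrl-low and 470 of the 506 Ghrl-high reads came from 1 cell each. In pool SLX-11179, 1 cell each gave 1096 of the 1613 Ghrl-low and 1534 of the 1650 Ghrl-high reads. Nts, the neurotensin gene, was at 24441, 3750 and 2789 CPM against 40643, 3373 and 3001 CPM (-0.23, SE 0.17), and differed more between pools than between sides, with 61.9% of the Ghrl-high and 66.3% of the Ghrl-low reads of pool SLX-11175 from 1 cell each. At 10000 CPM, Nts was reached by 7 of 44 and 6 of 57 cells. Of 26 hormone genes besides Ghrl, Cck and Gip, 8 were expressed enough to be tested, 0 were called by edgeR, and their median log2 fold change was -0.30.

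**Figure D3:**
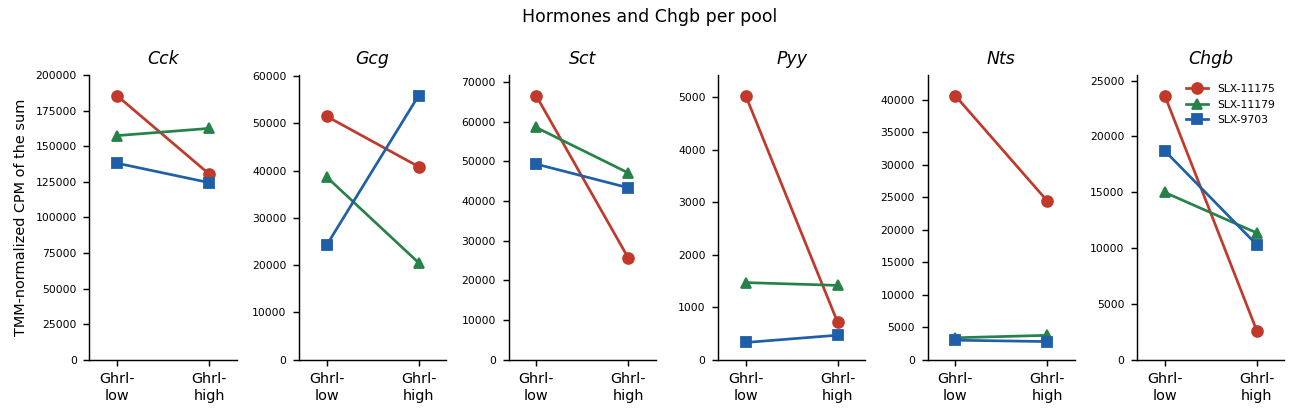
TMM-normalized CPM of Cck, Gcg, Sct, Pyy, Nts and Chgb in the Ghrl-low and Ghrl-high sums, 1 line per pool, each axis from 0. Sct and Chgb are lower in the Ghrl-high sum of all 3 pools, and Gcg is higher in pool SLX-9703 and lower in the others.

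Mboat4, the enzyme that acylates ghrelin, was at a low level on both sides. It was at 30.9, 10.3 and 15.5 CPM against 15.9, 19.1 and 4.64 CPM, with overlapping sums and a log2 fold change of 0.67 (SE 0.80, edgeR p = 0.42, adjusted p = 0.999). A read of Mboat4 was found in 11 of 44 Ghrl-high and 10 of 57 Ghrl-low cells, or 6.3 and 5.9 cells at 20000 reads. It overlaps Gm39158 on the other strand. Of 19 genes of ghrelin acylation and of acyl-CoA supply and breakdown, 17 were tested, 0 were called in either direction by edgeR, and the median log2 fold change was 0.12. The medium-chain dehydrogenase Acadm had one of -0.62 (SE 0.78) and the long-chain synthetase Acsl5 one of 0.48 (SE 0.43).

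Of 21 receptors known from gastric ghrelin cells, 12 were tested and 0 were called by edgeR, with a median log2 fold change of 0.15. The melanocortin receptor Mc4r had the lowest p, at 61.8, 128 and 42.3 CPM against 3.40, 45.5 and 33.2 CPM (1.62, SE 0.61, p = 0.023, adjusted p = 0.999). Mc4r and Casr are also in the list of genes of Pzp cells, which made up 47.7% of the Ghrl-high and 33.3% of the Ghrl-low cells at 100 CPM of Pzp, and the part of this in the Mc4r values was not tested. The free fatty acid receptors Ffar2 (0.14, SE 0.33) and Ffar4 (0.14, SE 0.47) and the calcium-sensing receptor Casr (0.49, SE 0.99) had differences smaller than their SE. Of 32 other receptors of gut endocrine cells, 15 were tested and 0 were called. The cannabinoid receptor Cnr1, picked out after its values were seen, was at 2.81, 3.43 and 2.00 CPM against 34, 35.5 and 8.56 CPM without overlap (-2.90, SE 0.83, p = 0.0056, adjusted p = 0.999). The authors found Cnr1 enriched in their cluster with high Gip, and the part of this in the Cnr1 values was not tested.

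Genes of the secretory granule did not pass the test in the main comparison. Of 20 granin and prohormone processing genes, 18 were tested, 0 were called by edgeR, and the median log2 fold change was -0.04. Chgb, a granin picked out here after its values were seen, was at 2592, 11350 and 10288 CPM against 23644, 14980 and 18701 CPM. The sums did not overlap, the log2 fold change was -1.44 (SE 0.42, p = 0.0066, edgeR adjusted p = 0.999), and the median of single cells was 2906 CPM in Ghrl-high and 9483 CPM in Ghrl-low cells. Chgb was called lower in 5 alternatives, with log2 fold changes of -1.86 to -1.24: DESeq2, no filter on low counts, thinned cells, limma on mean log levels and cells from 10000 CPM of Gcg. The call with thinned cells depended on the draw, since Chgb passed in 9 of 20 further draws (edgeR adjusted p of 5.9e-05 to 0.82). Its relatives had log2 fold changes of -0.51 (SE 0.38) for Chga and 0.02 (SE 0.13) for Scg2, and the convertase gene Pcsk1 one of -0.17 (SE 0.24). Qpct, which cyclizes N-terminal glutamine of peptides, had one of 1.24 (SE 0.51, p = 0.034, adjusted p = 0.999). Of 27 genes of vesicle exocytosis, 23 were tested and 0 were called, with a median of -0.04.

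Of 46 endocrine transcription factors, 31 were tested and 0 were called by edgeR, with a median log2 fold change of 0.03. Pax4, described above, and Onecut3 had the lowest p. Onecut3, a cut homeodomain factor, was at 153, 209 and 140 CPM against 31.7, 92 and 108 CPM (1.21, SE 0.37, p = 0.0084, adjusted p = 0.999). For the BMP pathway and its Id targets, 12 of 15 genes were tested with a median of -0.19, and for ion channels and the KATP channel 16 of 25 with a median of 0.15, in each case with 0 called. The potassium channel Kcnk16 was at 53.4, 81.5 and 81.3 CPM against 32.9, 25.5 and 26.6 CPM without overlap (1.35, SE 0.41, p = 0.0080, adjusted p = 0.999). Of 13 nutrient transporters, 10 were tested, 0 were called, and the median was -0.25. The neutral amino acid transporter Slc6a19 was lower in every pool (-0.61, SE 0.23, p = 0.021, adjusted p = 0.999). Of 11 genes of serotonin and monoamine handling, 9 were tested and 0 were called. Tph1, the first enzyme of serotonin synthesis, had a log2 fold change of 0.90 (SE 0.59, p = 0.16, adjusted p = 0.999).

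The kinds of endocrine cell on the sides were described by their marker genes. Pzp reached 100 CPM in 21 of 44 Ghrl-high (47.7%, 32.5 to 63.3%) and 19 of 57 Ghrl-low cells (33.3%, 21.4 to 47.1%), and Gcg 10000 CPM in 31.8% and 35.1%. All 12 genes of Pzp cells were tested and 0 were called by edgeR, with a median log2 fold change of 0.67 and a summed level of 1367 to 2156 CPM against 436 to 2159 CPM. All 13 genes of Gcg cells had a median of -0.22, and 5 tested of 10 genes of Gip cells one of -1.41, with a summed level of 57.9 to 90.3 CPM against 102 to 153 CPM. These lists were drawn up from earlier results on these same cells and are not independent evidence. The part of these cell kinds in the differences was not tested. With cells under 100 CPM of Pzp alone, the log2 fold change was 4.31 for Cd177 and 2.72 for Ceacam10, and with cells from 100 CPM it was 6.94 and 2.33. Neither gene passed in either set of cells, at edgeR adjusted p of 0.12 and 0.51 under 100 CPM and of 0.65 and 0.57 from 100 CPM.

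Of the markers of other cell types, 0 were called by edgeR in the main comparison. Of 15 enterocyte genes 13 were tested, with a median log2 fold change of -0.14 (range -2.18 to 0.38). Of these 13, 2 were higher and 3 lower in every pool, against 12.7% and 14.7% of all genes tested. The enterocyte genes had a summed level of 5005 to 5665 CPM in the Ghrl-high against 3674 to 5559 CPM in the Ghrl-low sums. Mttp and the apolipoprotein gene Apoa1 (-1.91, SE 0.75, p = 0.029, adjusted p = 0.999) had the lowest p of them, and Mttp was called lower in 3 alternatives (-2.25 to -2.08). Of 8 goblet cell genes 4 were tested, with a summed level of 5155 to 8479 CPM against 2556 to 6707 CPM. The trefoil factor Tff3 (0.52, SE 0.18, p = 0.016) and the disulfide isomerase Agr2 (0.45, SE 0.18, p = 0.031) were higher in every pool with edgeR adjusted p of 0.999. Among the alternatives, Tff3 was called higher by limma on mean log levels (1.5), and Agr2 was called in the opposite direction, lower, in the fit on cells from 10000 CPM of Gcg (-1.97), which has 2 pools. The mucin gene Muc2 and Clca1, Zg16 and Guca2a were too low to be tested. Paneth, tuft, and stem and cycling lists had 3 of 8, 1 of 8 and 1 of 12 genes tested and summed levels of at most 66.3 CPM in any sum. Of 14 immune genes 5 were tested, with a median log2 fold change of -0.05 (range -0.71 to 0.20), 0 higher and 1 lower in every pool, and a summed level of 122 to 228 CPM against 66.8 to 214 CPM, and the leukocyte genes Ptprc, Cd3e and Nkg7 were too low to be tested. H2-Ab1, a class II antigen gene picked out after its values were seen, was at 12.6, 18.9 and 53.9 CPM against 0, 1.82 and 14.9 CPM (2.90, SE 0.87, p = 0.0074, edgeR adjusted p = 0.999), with sums that overlapped. The macrophage genes C1qb and Apoe, too low to be tested in the main comparison, were called higher in 2 alternatives each, with no filter on low counts and without pool SLX-11175. The part of these cell types was not tested. Immediate early genes, which respond to dissociation, had a median of 0.38 over 10 tested of 13, with 0 called in the main comparison and the receptor gene Nr4a1 at the lowest p (3.50, SE 1.49, p = 0.039, edgeR adjusted p = 0.999). With no filter on low counts, Nr4a1 (3.67) and Atf3 (1.61) were called higher.

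Cd177 and Ceacam10 were higher in Ghrl-high cells in every alternative in which they could be fitted, while passing the threshold depended on the setting. The log2 fold change of Cd177 lay between 3.68 and 7.20 in 21 alternatives and passed in 11, and that of Ceacam10 between 1.97 and 4.66 in 22 and passed in 9. Both counts of passes include the alternative with Ghrl, Cck and Gip in the adjustment, which has the same fit as the main comparison and is no separate evidence. With every cell thinned to 20000 reads by 1 random draw both passed by edgeR, at adjusted p of 0.0014 for Cd177 and 5.5e-05 for Ceacam10. The call of Cd177 depended on the draw: in 20 further draws it passed in 14 and Ceacam10 in 20, with log2 fold changes of 3.36 to 5.61 and 2.32 to 3.29. Without pool SLX-9703 neither passed (edgeR adjusted p = 0.990 for each, log2 fold changes 4.81 and 2.44), and without either of the other pools both passed. Without the pool in the model neither passed. With Slc34a2 and CT010467.1, a gene that also took many reads, left out of the CPM that chose the cells, 52 cells were Ghrl-high and 48 Ghrl-low, and both genes had an adjusted p of 0.062 by edgeR.

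**Figure D4:**
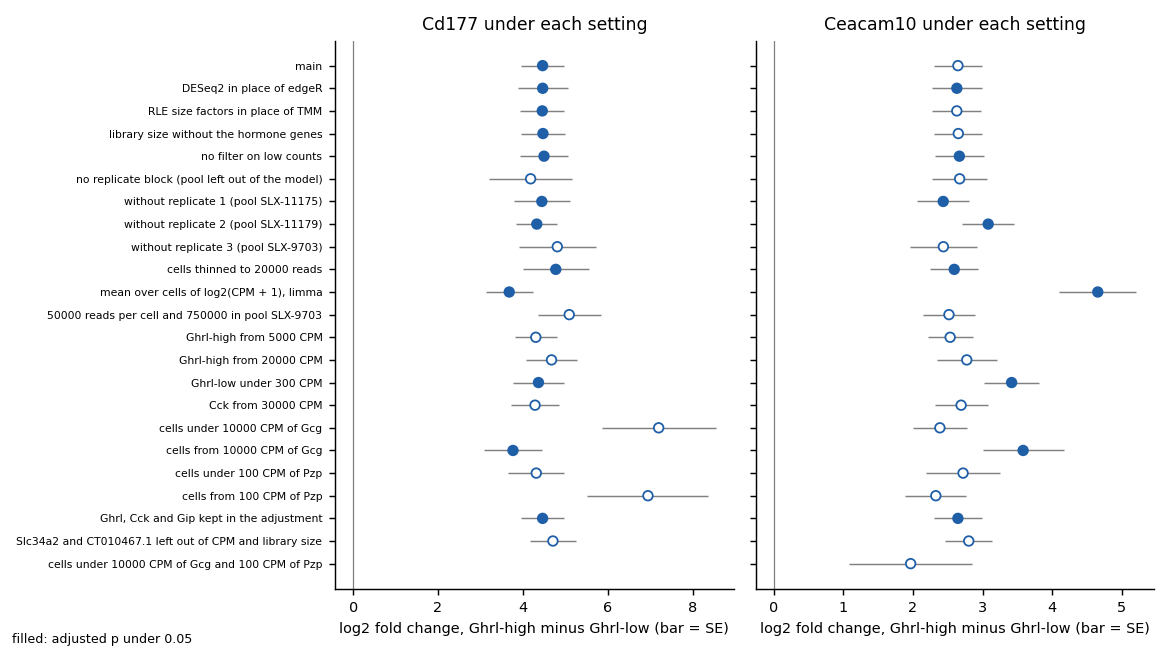
Log2 fold change of Cd177 and Ceacam10 (Ghrl-high minus Ghrl-low, bars are SE) in the main comparison and under each alternative, filled where the adjusted p is under 0.05. The limma values are differences of mean log2(CPM + 1) over cells and not folds of the sums. All values lie above 0, from 3.68 to 7.20 for Cd177 and from 1.97 to 4.66 for Ceacam10.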

How the data were processed

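Raw counts of reads per gene were deposited for every cell in 1 table, from Smart-seq2 libraries without molecular identifiers or strand, which the submitters' processing notes credit to GSNAP (version 2015-09-29), HTSeq (version 0.5.3p3) and build mm10. Columns of 4 further cells match no sample and were not used. Lines that name no gene hold 77.6% of all counts and mouse genes 17.1%, and neither those lines nor the 92 spike-ins entered library sizes or tests. Symbols and positions come from GENCODE M21.

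Counts of the cells of each side were summed per pool (at least 3 cells) and tested with edgeR 4.0.16 (filterByExpr, TMM, quasi-likelihood test, pool as block) in R 4.3.3, with Benjamini-Hochberg adjustment over all genes tested except Ghrl, Cck and Gip. Cells are not replicates, so the authors' test of single cells was not followed. Sums of the same pool deviated together, with correlations of 0.114, 0.0938 and 0.376 against -0.181 to 0.0566 between pools, and both sides of a pool come from the same sequencing pool. Single-cell levels (CPM) were scaled to the reads on mouse genes. Thinned shares are exact hypergeometric expectations. No doublets were called. DESeq2 1.42.0, limma 3.58.1 and the other alternatives are given at the end. Named were Mboat4, the hormones with a mean of at least 100 CPM and, in each direction, 10 genes of the same sign in 3 pools, those past an adjusted p of 0.05 first and then by lowest p, without predicted genes and pseudogenes. These 10 include Ghrl among the higher and Gip among the lower genes, although both chose the cells. The selection of cells and the gene lists were chosen with earlier results of these data known.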

Additional observations from a re-analysis of the deposited data

How the results depend on the processing

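The number of genes called higher in Ghrl-high cells (1 in the main comparison by edgeR) was 9 with DESeq2, 13 with no filter on low counts, 3 with thinned cells (1 to 3 over 20 further draws, which were added), 10 with limma on mean log levels, 3 with Ghrl-low under 300 CPM, 7 in cells from 10000 CPM of Gcg, and 0 with 50000 reads per cell and 750000 in pool SLX-9703, with Ghrl-high from 5000 or 20000 CPM, with Cck from 30000 CPM, in cells under 10000 CPM of Gcg, and in cells under or from 100 CPM of Pzp. Alternatives added after seeing the data gave 2 with Ghrl, Cck and Gip in the adjustment, 0 without Slc34a2 and CT010467.1, and 4 in cells under 10000 CPM of Gcg and 100 CPM of Pzp. The first of these draws on the genes that chose the cells and is no further evidence. The number called higher was 9 without pool SLX-11175, 5 without SLX-11179 and 0 without SLX-9703. The number called lower (0) was 8 with DESeq2, 10 with no filter, 1 with thinned cells (0 to 5 over the further draws), 4 with limma, 10 in cells from 10000 CPM of Gcg and 2 in cells under both limits, and 0 to 3 with a pool left out. The cause of these shifts was not tested. The fits on cells from 10000 CPM of Gcg and on cells under both limits had 2 pools.

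With no replicate block, that is with the pool left out of the model, 0 genes were called higher and 0 lower, and the log2 fold changes of Cd177 and Ceacam10 were 4.18 and 2.67 with edgeR adjusted p of 1.00 and 0.27.

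Of the named genes, hormones turned direction. Cck, which chose the cells and was not tested, was at -0.20 in the main comparison, 0.28 in cells from 100 CPM of Pzp and 0.0071 in cells under both limits. The others were not called in the main comparison. Gcg (-0.03) was at 0.021 with no replicate block, 0.49 with limma, 0.27 and 0.33 with Ghrl-high from 5000 and 20000 CPM, 0.10 with Ghrl-low under 300 CPM, 0.40 in cells from 10000 CPM of Gcg, 0.40 and 0.52 in cells under and from 100 CPM of Pzp, 0.36 without Slc34a2 and CT010467.1, and 0.17 without pool SLX-11175, and from -0.62 to 0.44 over the pools left out. Pyy was at 0.32 in cells from 10000 CPM of Gcg and from -1.43 to 0.25 with a pool left out. Sct was at 0.29 in cells from 100 CPM of Pzp. Nts was at 0.33 with limma, 1.56 with Ghrl-low under 300 CPM, 0.96 with Cck from 30000 CPM, 4.65 in cells from 10000 CPM of Gcg, where edgeR called it (adjusted p = 3.8e-19), 0.044 in cells under 100 CPM of Pzp, 0.75 in cells under both limits, and from -0.41 to 0.044 with a pool left out. The call of Nts in cells from 10000 CPM of Gcg rests on 1 Ghrl-high cell in each of its 2 pools, with 8611 and 626 CPM of Nts. Differences in genes with few reads in the shallow pools could be missed, and the part of this in the results was not tested.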

Other observations

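Outside the Cck-high cells, high Ghrl was rare: among cells under 10000 CPM of Cck and of Gip, 1 cell reached 10000 CPM of Ghrl, 3 lay between the limits and 67 were Ghrl-low. In the sums of those 67 cells, in the pool order SLX-11175, SLX-11179 and SLX-9703 and without TMM factors, Ceacam10 was at 0.372, 7.21 and 21.1 CPM and Cd177 at 0, 0 and 0.481 CPM. In the sums of the 29 Gip-high cells, Ghrl was at 1141, 45.4 and 1052 CPM, Ceacam10 at 29.2, 75.6 and 12.6 CPM, and Cd177 at 25.9, 0 and 8.95 CPM. Lect2, which had low levels in Ghrl-high Cck-high cells, was at 35.6, 59.1 and 34.5 CPM in the Gip-high cells.

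Whether the fold change between the sides differs with the level of Pzp was tested by an interaction over 12 sums in edgeR, added after seeing the data. Of 9053 genes tested, 0 were called, 367 had an unadjusted p under 0.05, and the lowest adjusted p was 0.53 for Rgs2, a regulator of G protein signalling. The difference of the Ceacam10 log2 fold change between Pzp-positive and Pzp-negative cells was -0.30 (SE 0.64) and that of Cd177 was 3.42 (SE 1.74), with unadjusted p of 0.64 and 0.065.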
